A study of Mus musculus with 6 samples.

Results

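The genes described here code for the collagens, the laminins and other large proteins of the extracellular matrix. Members were taken by symbol among the protein-coding genes of the deposited table: every collagen chain gene, every laminin chain gene, *Nid1* and *Nid2* (the nidogens), *Fn1* (fibronectin), *Fbn1* and *Fbn2* (the fibrillins), *Lum* (lumican) and *Hspg2* (perlecan). This gave 49 of 15168 genes. *Col4a3bp* was caught by its symbol alone, since it codes for a ceramide transfer protein, so 48 members code for matrix proteins. All 49 passed the filter on low values. A further 14 genes of the same classes, among them *Lum*, *Col4a3*, *Lamb3* and *Col8a1*, had no protein-coding entry in the table. They could not be analysed, and the filter was not what removed them.

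RNA came from the lateral ganglionic eminence (LGE), the embryonic primordium of the striatum, at E16.5. The 3 control libraries were *Dlx5/6-CIE*, a transgene in which *Dlx5/6* regulatory sequence drives Cre and EGFP in subpallial cells. The 3 overexpression libraries were *Dlx5/6-CIE; Rosa-Sp9-OE/+*, in which Cre removes a stop signal so that a CAG promoter in the *Rosa26* locus expresses the coding sequence of the transcription factor *Sp9*. All 6 libraries therefore carry Cre, on a mixed C57BL/6J, 129S6 and CD1 background, with littermates as controls. The cross was made to ask what maintained *Sp9* does to the fate of striatal projection neurons, and matrix genes were not its subject. The study's methods give 3 or more animals for each experiment, but the labels do not tie each library to an animal, and p-values here cover no more than the spread among the libraries.

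Collagens are trimers whose chains carry a repeat of glycine-X-Y triplets, with a glycine opening each triplet, and wind into a helix. Type IV collagen and laminin form separate sheet-like networks that nidogens and perlecan link into the basement membrane. In the embryonic brain this sheet surrounds the vessels and lies under the meninges, where the end feet of radial glia attach to it. Fibrillar collagens, by contrast, are products mainly of fibroblasts, and in brain tissue they are found in the meninges and around larger vessels.

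The repeat that defines the family is shown here in the genes to which the results below return, so that the shared feature can be read directly. Each line gives 10 triplets of the coding sequence (GENCODE M21, build GRCm38), with the glycine codon that opens each triplet in capitals.
Col4a1: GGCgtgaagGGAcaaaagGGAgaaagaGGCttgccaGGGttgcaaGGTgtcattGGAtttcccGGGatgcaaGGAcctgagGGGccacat
Col4a2: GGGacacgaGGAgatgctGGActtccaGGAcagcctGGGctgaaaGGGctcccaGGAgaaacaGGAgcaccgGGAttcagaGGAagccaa
Col5a2: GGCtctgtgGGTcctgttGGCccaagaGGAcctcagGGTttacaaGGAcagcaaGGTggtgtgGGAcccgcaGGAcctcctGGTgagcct
Col3a1: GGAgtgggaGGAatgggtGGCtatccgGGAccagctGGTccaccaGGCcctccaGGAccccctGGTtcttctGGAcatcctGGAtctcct
Col1a1: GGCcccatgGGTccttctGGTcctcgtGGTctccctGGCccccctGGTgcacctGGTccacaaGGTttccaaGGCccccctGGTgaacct

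Over the whole coding sequence, the longest unbroken run was 23 to 344 triplets in the 32 collagen chains and 2 to 4 in the other 17 members, *Col4a3bp* included with 2. The 10 fibrillar chains had runs of 217 to 344 triplets. The 7 basement membrane collagens had runs of 30 to 66, with *Col4a1* broken into 22 runs of at least 6 triplets. The sequences thus sorted the members into collagens and others as their names do.

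**Figure D1:**
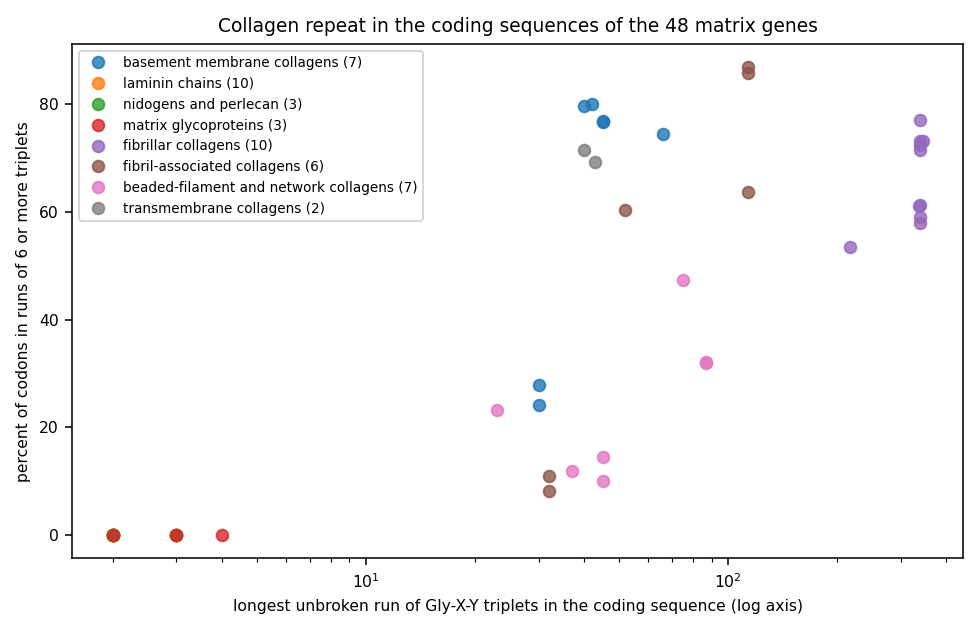
Longest run of Gly-X-Y triplets (x axis, log scale, in triplets) against the percent of codons in runs of 6 or more triplets (y axis), 1 point per gene, coloured by class. Fibrillar collagens lie at the right, at 217 to 344 triplets, and the laminins, nidogens, perlecan, fibronectin and fibrillins lie at 0% with runs of 2 to 4.

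*Col4a1* and *Col4a2*, the chains of the common type IV collagen network, stand head to head on chromosome 8, and their annotated starts lie 21 bases apart. The windows from 250 bases before to 50 bases after each RefSeq start (GRCm38.p6) share 78 bases. They are printed because the levels of this pair are followed below, with GC boxes (GGGCGG or CCGCCC) and CCAAT boxes (CCAAT or ATTGG) in capitals. *Col4a1* lies on the minus strand at chr8:11312777-11313076 and *Col4a2* on the plus strand at chr8:11312555-11312854.
Col4a1: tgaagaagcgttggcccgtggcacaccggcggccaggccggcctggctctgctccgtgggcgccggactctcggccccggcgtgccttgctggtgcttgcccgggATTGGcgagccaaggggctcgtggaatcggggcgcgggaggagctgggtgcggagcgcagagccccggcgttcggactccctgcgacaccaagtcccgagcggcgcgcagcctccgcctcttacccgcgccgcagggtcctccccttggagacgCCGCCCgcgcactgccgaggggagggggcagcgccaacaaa
Col4a2: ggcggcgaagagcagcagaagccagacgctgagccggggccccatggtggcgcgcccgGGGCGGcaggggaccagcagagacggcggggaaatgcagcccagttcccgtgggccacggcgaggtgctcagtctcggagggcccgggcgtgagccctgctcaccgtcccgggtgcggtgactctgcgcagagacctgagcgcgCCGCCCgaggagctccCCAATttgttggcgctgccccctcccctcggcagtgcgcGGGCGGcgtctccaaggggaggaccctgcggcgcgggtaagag

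The *Col4a1* window holds 1 GC box and 1 CCAAT box, and the *Col4a2* window holds 3 and 1. Promoter windows were matched for 32 of the 49 members, 34 windows in all. A GC box stood in 76.5% of them, against 61.7% of the windows of all genes kept and 35.7% of all 32851 windows. A CCAAT box stood in 38.2%, against 37.5% and 37.4%. A match to these letters is a description of the window and not a binding site.

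Levels are CPM, reads scaled to library size. The listed genes held 19410365 to 22174028 recovered reads in the controls and 21767904 to 25126847 in the overexpression libraries. *Sp9* itself measured 130, 147 and 170 CPM in the controls and 178, 268 and 305 CPM in the overexpression libraries, so every overexpression library was above every control. The 14 LGE and striatum markers were all detected, with summed levels of 4217 to 4603 CPM in the controls and 4573 to 5430 CPM in the overexpression libraries, and the 8 pyramidal neuron markers summed to 15.01 to 105 CPM over all libraries. *Xist* measured 2227 and 2191 CPM in control replicates 1 and 2 but 2.35 CPM in control replicate 3 and 1.37 to 2.33 CPM in the overexpression libraries, while *Kdm5d*, on the Y chromosome, was at 73.7 to 80.6 CPM in the libraries with low *Xist*. Sex was thus not balanced between the groups, and results are also given against control replicate 3 alone. A fit with *Xist* as a covariate rests almost only on that same control. These 2 settings are thus not separate checks.

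Of the 48 matrix genes, 6 measured 50 CPM or more on average, namely *Col4a1*, *Col4a2*, *Lamc1*, *Fn1*, *Col22a1* and *Lamb2*. A further 20 lay between 10 and 50 CPM, 21 between 1 and 10 CPM, and *Col5a3* alone below 1 CPM. The 5 most abundant held 43.7% of the summed CPM of the 48, and the 20 most abundant held 84.1%. Per kilobase of exon, which allows levels to be compared between genes, *Col4a1* ranked first with 17.5 CPM per kb in the controls, followed by *Col4a2* with 14.99, *Lamc1* with 10.2 and *Lamb2* with 9.16. *Col1a1*, a chain of the type I collagen of skin, bone and meninges, measured 0.964 CPM per kb in the controls. In the overexpression libraries it measured 0.707 CPM per kb, and it ranked 31 by the mean of both groups.

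**Figure D2:**
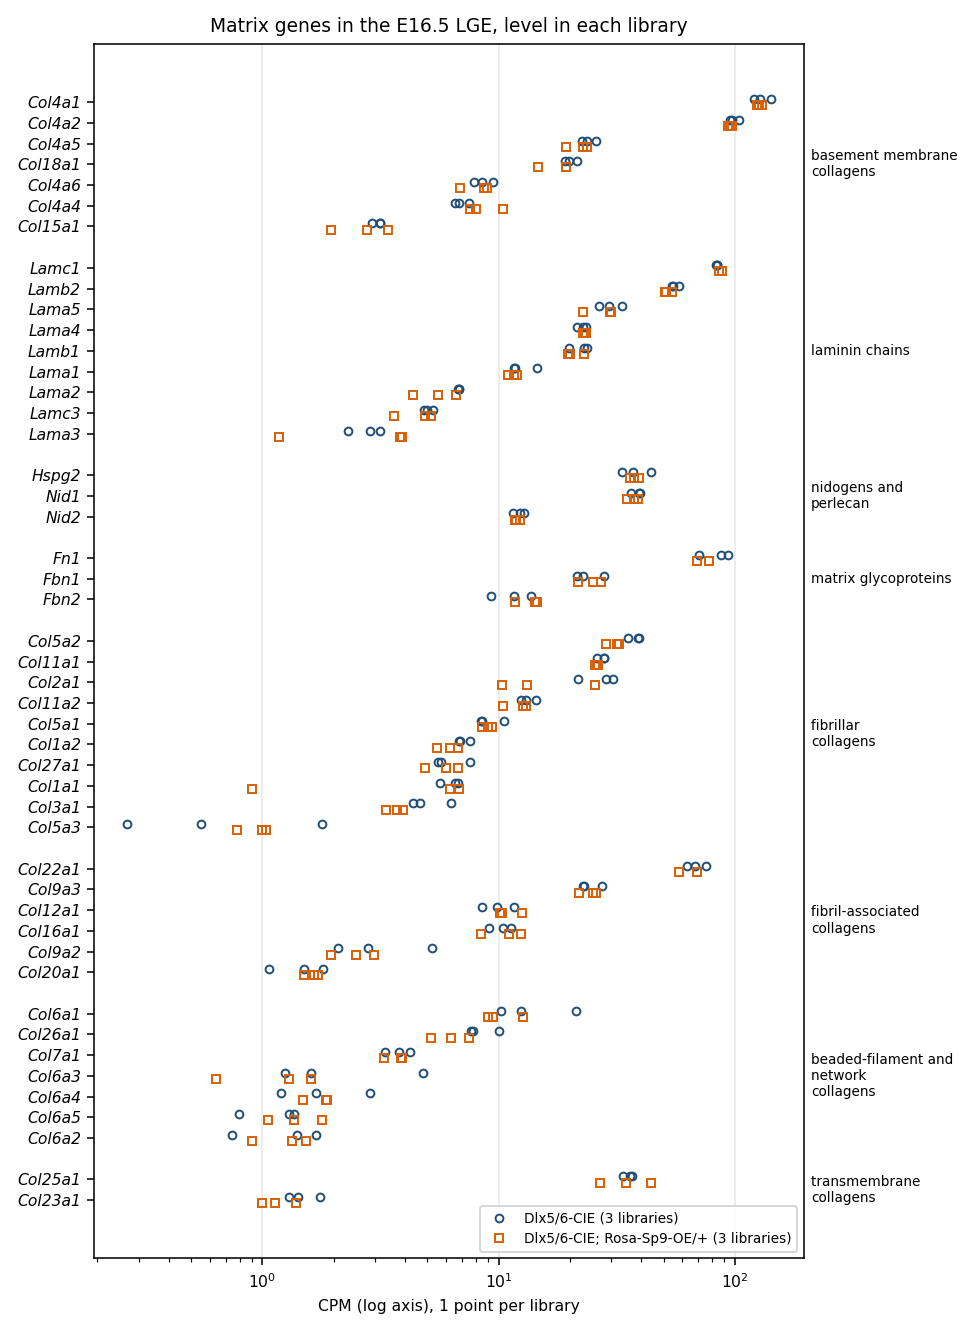
CPM (x axis, log scale) of 47 matrix genes in each of the 6 libraries, ordered by class and mean level. Blue circles are the 3 *Dlx5/6-CIE* libraries and orange squares the 3 *Dlx5/6-CIE; Rosa-Sp9-OE/+* libraries, and *Col4a1*, *Col4a2* and *Lamc1* stand at the top of their classes.

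The difference between the groups was asked of every gene with limma, on log2(CPM + 0.5), with p-values adjusted by the Benjamini-Hochberg method over the 15102 genes kept. No matrix gene was called at an adjusted p under 0.05, and the lowest adjusted p among the members was 0.788. Among all genes kept, 4 were called, or 0.0265%. *Sp9* itself was not called, with a log2 difference of 0.72, an unadjusted p of 0.00515 and an adjusted p of 0.788 from limma. A gene that is not called here can therefore still differ. No member was called by edgeR or DESeq2 on recovered reads either, where 5 and 34 genes of the whole table were called. At an unadjusted p under 0.05 stood 4 of the 49 members, against 5.52% of all genes, and all 4 were lower in the overexpression libraries (*Col5a2*, *Col2a1*, *Col3a1* and *Col26a1*). Among all genes, 2.84% stood there with a lower and 2.68% with a higher value.

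By value alone, 38 of the 49 members were lower in the overexpression libraries, or 77.6%, against 49.8% of all genes, and 37 of the 48 matrix genes were. Here and below, direction by value is the sign of the limma log2 difference. Near 0 that sign can differ from the means. *Lama3* counts as lower, with means of 2.77 CPM in the controls and 2.97 CPM in the overexpression libraries. *Col6a2* counts as higher, with 1.28 and 1.25 CPM. The median log2 difference of the 49 was -0.07, against 0.000519 over all genes. The 48 matrix genes together summed to 1058, 1077 and 1111 CPM in the controls and 1054, 1029 and 970 CPM in the overexpression libraries, 0.941 of the control mean. The members share libraries and cell types and are not independent of each other. Overexpression replicate 3 was the lowest library for 21 of the 48 matrix genes, or 43.8%, against 24.4% of all genes, and control replicate 3 was the highest for 16, or 33.3%, against 16.2%. Without overexpression replicate 3 the members lower by value were 31 of 49, or 63.3%, against 50.7% of all genes. Against control replicate 3 alone they were 33 of 49, or 67.3%, against 50.9%.

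In 8 members, or 16.3%, the libraries of the groups did not overlap, against 11.2% of all genes. Every overexpression library was below every control for 6 of them, *Col5a2*, *Col3a1*, *Col26a1*, *Col1a2*, *Lama2* and *Lamb2*, against 5.73% of all genes. Every one was above every control for *Lamc1* and *Col4a4*, against 5.46% of all genes.

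**Figure D3:**
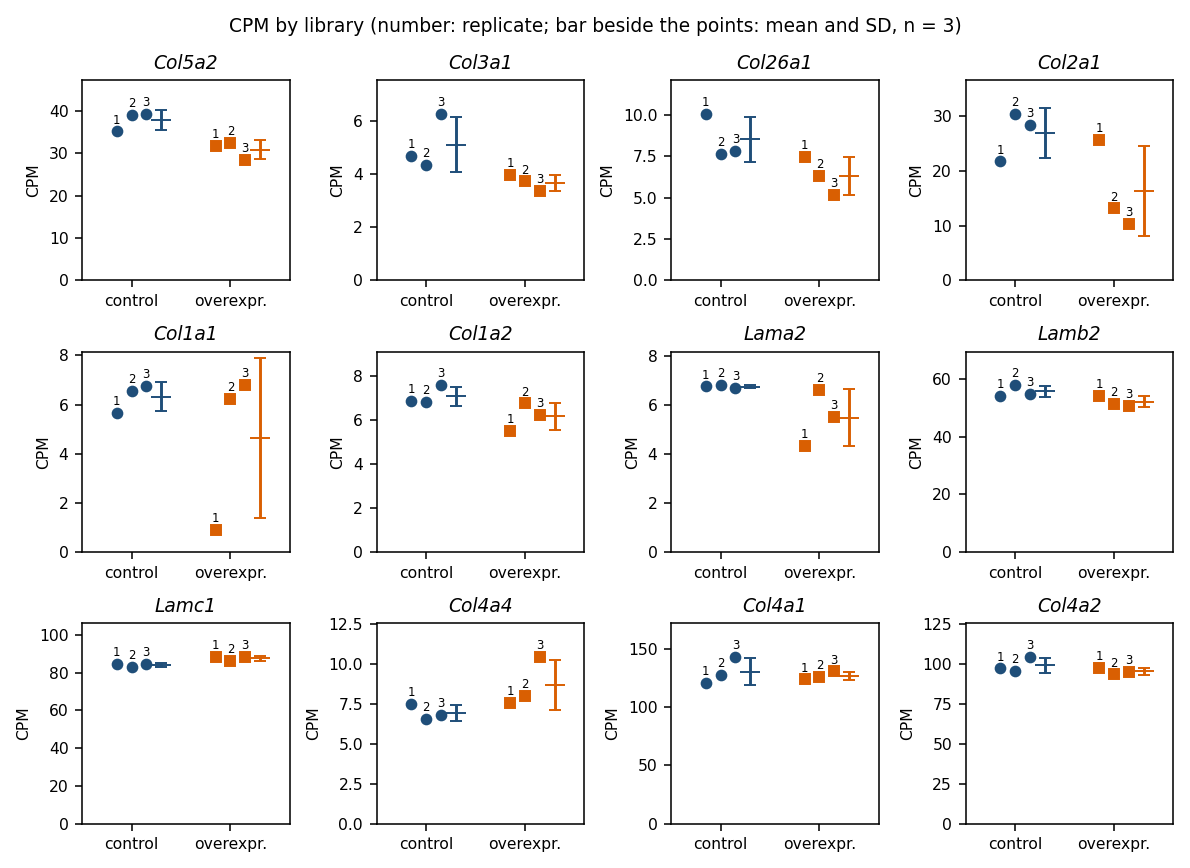
CPM (y axis, from 0) of 12 matrix genes in each library, with the replicate number over each point and the mean and SD (n = 3) beside each group. The groups do not overlap in *Col5a2*, *Col3a1*, *Col26a1*, *Col1a2*, *Lama2*, *Lamb2*, *Lamc1* and *Col4a4*, and *Col1a1* has 1 low library at 0.899 CPM.

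**Figure D4:**
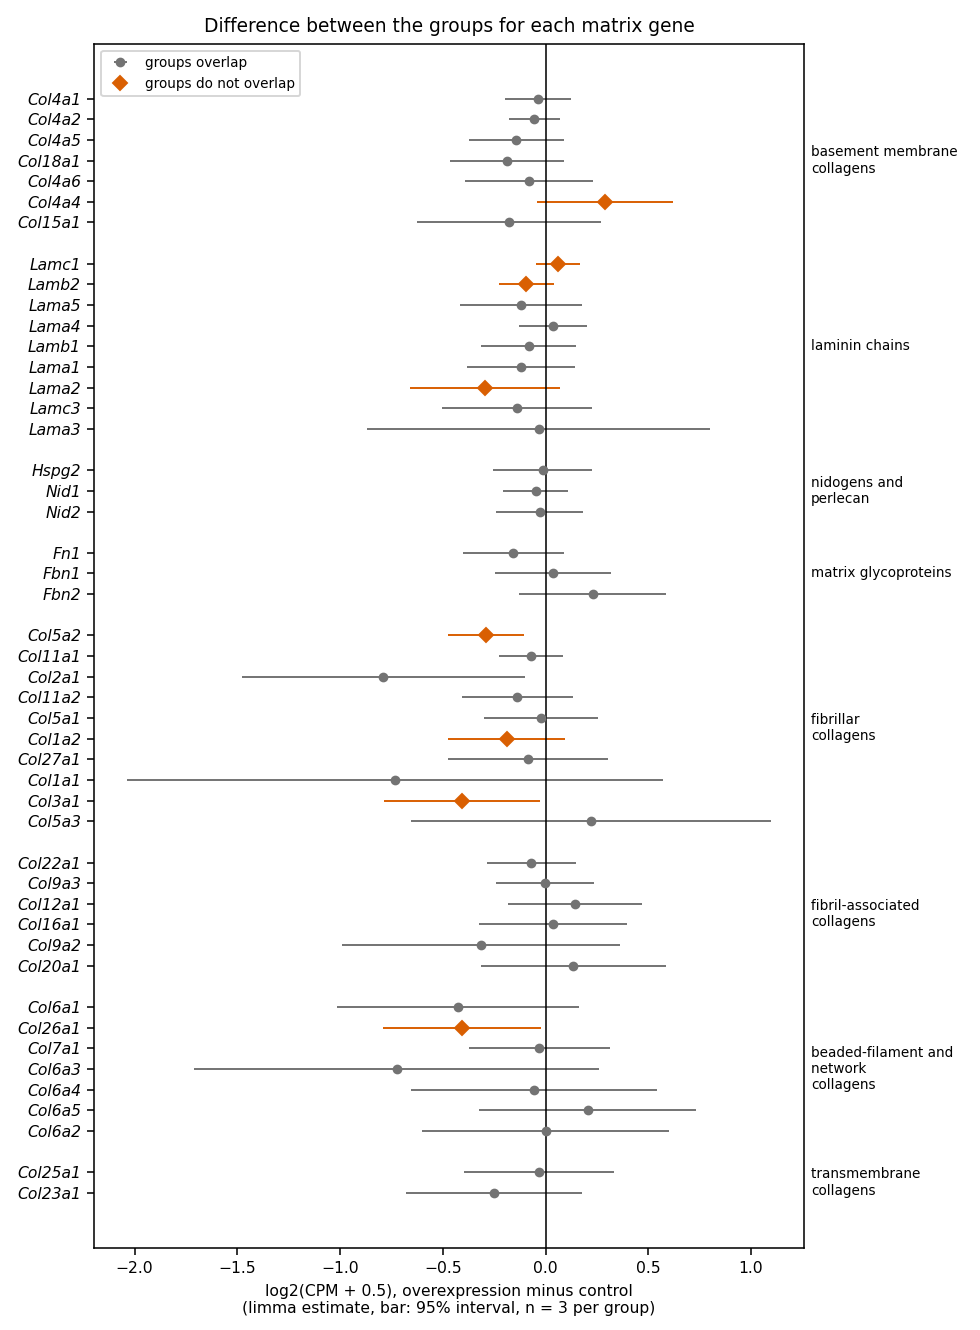
Difference of log2(CPM + 0.5), overexpression minus control, for 47 matrix genes by class (x axis), with the 95% interval from limma. Orange diamonds mark the 8 genes whose groups do not overlap, and the intervals of *Col5a2*, *Col2a1*, *Col3a1* and *Col26a1* lie below 0.

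The fibrillar collagens held 3 of the 4 members at an unadjusted p under 0.05, or 30% of the class against 5.52% of all genes. Of the 10 genes of this class, 9 were lower by value, or 90% against 49.8% of all genes, and 1 was higher, with a median log2 difference of -0.16. Their summed level was 128, 145 and 148 CPM in the controls and 122, 118 and 107 CPM in the overexpression libraries, which is 0.825 of the control mean. The sums did not overlap, nor did they with 1 of 3 genes left out, though some edges were close. Without *Col1a1* they were at least 122 CPM against at most 121 CPM. Without *Col2a1* the lowest control was at 105.7 CPM and the highest overexpression library at 105.2 CPM. Without *Col5a2* they were 92.3 to 109 CPM against 78.4 to 90.0 CPM. Leaving out 2 of these genes together was not tried, so the sums do not show that the rest of the class was apart. In bulk tissue, fewer cells of a type and less RNA per cell cannot be told apart.

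*Col5a2*, a chain of the type V collagen that starts fibrils, had the lowest unadjusted p of the members. It measured 35.2, 39.0 and 39.4 CPM in the controls and 31.7, 32.5 and 28.4 CPM in the overexpression libraries. All 3 overexpression libraries lay below the lowest control. The log2 difference was -0.29 (SE 0.08), with an unadjusted p of 0.00674 and an adjusted p of 0.788 from limma. Its partner chain *Col5a1* was at 9.17 ± 1.17 CPM and 8.98 ± 0.47 CPM (SD, n = 3), a log2 difference of -0.02 with a 95% interval from -0.30 to 0.26.

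*Col3a1*, the chain of type III collagen, lies on chromosome 1 next to *Col5a2* on the opposite strand, with 24614 bases between the genes. It measured 4.66, 4.33 and 6.26 CPM in the controls and 3.95, 3.72 and 3.35 CPM in the overexpression libraries. The groups did not overlap, but their edges were 0.382 CPM apart, and each library held only 74 to 141 reads of the gene. In limma the log2 difference was -0.41 (SE 0.16), with an unadjusted p of 0.0389 and an adjusted p of 0.788. It was -0.26 without control replicate 3, -0.70 against that control alone and -0.71 with *Xist* as a covariate. The last 2 values rest on the same control, which was the highest library for *Col3a1*.

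*Col2a1*, the chain of cartilage collagen that is also made in the embryonic neuroepithelium, had the largest difference on the log2(CPM + 0.5) scale among the members, while *Col6a3* had the larger one in edgeR, at -1.09 against -0.71 on the log2 scale. *Col2a1* measured 21.8, 30.5 and 28.5 CPM in the controls and 25.7, 13.2 and 10.3 CPM in the overexpression libraries. Overexpression replicates 2 and 3 were low and replicate 1 lay within the control range. The log2 difference was -0.79 (SE 0.30), with an unadjusted p of 0.0300 and an adjusted p of 0.788, and leaving out a library moved it both ways. Without overexpression replicate 1 it was -1.16 with an adjusted p of 0.152, the lowest of any member under any alternative tried, and without overexpression replicate 3 it was -0.52 with an adjusted p of 0.998.

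The chains of type I collagen parted in a single library. *Col1a1* measured 5.67, 6.57 and 6.75 CPM in the controls and 0.899, 6.23 and 6.79 CPM in the overexpression libraries. Overexpression replicate 1 was 7.31 times below the median of the other 5 libraries, while its partner *Col1a2* measured 5.51 CPM there. The low value rests on 23 reads, which allow 0.570 to 1.35 CPM at 95% by the exact Poisson interval, and *Col1a2* had 141 reads in the same library. Of 2781 genes with a mean level within 2 times that of *Col1a1*, 28 had a library as far below the others, or 1.007%. The log2 difference of *Col1a1* was -0.73 (SE 0.56), and it was 0.04 without overexpression replicate 1, -1.15 without overexpression replicate 3 and -0.46 in edgeR.

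*Col1a2* itself measured 6.87, 6.82 and 7.59 CPM in the controls and 5.51, 6.77 and 6.25 CPM in the overexpression libraries. The groups did not overlap, but control replicate 2 and overexpression replicate 2 were 0.050 CPM apart. Its log2 difference was -0.19 (SE 0.12), with an unadjusted p of 0.165 from limma, and without overexpression replicate 1 it was -0.12. It is the only member on chromosome 6, the chromosome of *Rosa26*, 108.5 Mb from that locus. *Col11a1* and *Col11a2*, chains of the cartilage-type fibrils, measured 27.3 ± 1.07 and 13.3 ± 0.99 CPM in the controls and 25.99 ± 0.38 and 12.1 ± 1.45 CPM in the overexpression libraries (SD, n = 3). The other fibrillar members, *Col5a3* and *Col27a1*, overlapped between the groups.

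The cells that made the fibrillar collagen RNA here were not identified. The highest control means of the class were those of *Col5a2*, *Col11a1* and *Col2a1*, at 37.9, 27.3 and 26.9 CPM. *Col1a2* and *Col1a1* had 7.09 and 6.33 CPM. Meningeal fibroblasts, a possible source, were followed through 5 detected markers of 10 listed. These summed to 66.7 to 67.4 CPM in the controls and 60.8 to 68.7 CPM in the overexpression libraries. *Igf2* made up most of the sum, at 41.5 to 48.6 CPM. None of the 5 was at 0 in a library, and 3 were lower and 2 higher by value. The groups did not overlap in 2 of the 5, or 40%, against 11.2% of all genes. These were *Crabp2*, which was lower (log2 difference -0.53, unadjusted p 0.0273 from limma), and *Islr*, which was higher (0.29, unadjusted p 0.0503). Of the marker sums, that of microglia had the lowest ratio of overexpression to control means, 0.627. All 9 microglial markers were lower by value. At an unadjusted p under 0.05 stood 4 of them, or 44.4%, against 5.52% of all genes. The 9 summed to 307, 398 and 356 CPM in the controls and 325, 249 and 90.7 CPM in the overexpression libraries. The 9 radial glia markers summed to 2312 to 2768 CPM and 2158 to 2459 CPM. The 5 markers of oligodendrocyte precursors were all lower by value and summed to 92.2 to 105 CPM and 75.9 to 100.5 CPM. Of these, 2 had no overlap between the groups, or 40%, against 11.2% of all genes. They were *Sox10* and *Cspg4*, and *Cspg4* is also counted among the mural cell markers. Overexpression replicate 3 had the lowest sum of microglial, radial glia and oligodendrocyte precursor markers as well as of fibrillar collagens. The part of these cells in the result was not tested.

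**Figure D5:**
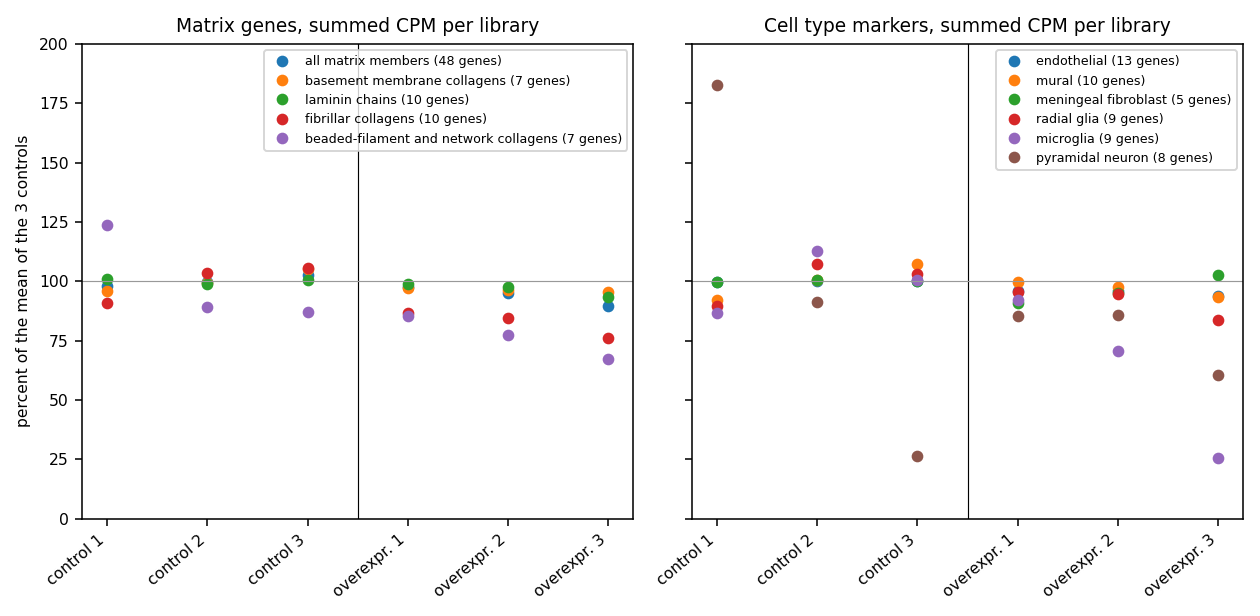
Summed CPM of 5 sets of matrix genes (left) and of 6 sets of cell type markers (right) in each library, as a percent of the mean of the 3 controls (y axis from 0). The sums of all matrix genes, of fibrillar and of beaded-filament and network collagens lie lower in all 3 overexpression libraries than in any control. So does the endothelial sum on the right. Edges are close for all matrix genes (1058 against 1054 CPM) and the beaded-filament class (29.4 against 28.9 CPM). On the right, the microglial and the pyramidal neuron sums spread most between libraries.

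Of the 7 basement membrane collagens, 6 were lower by value and 1 was higher, none at an unadjusted p under 0.05, with a median log2 difference of -0.08. *Col4a1* measured 121, 128 and 143 CPM in the controls and 124, 126 and 131 CPM in the overexpression libraries. *Col4a2* measured 97.3, 95.9 and 105 CPM in the controls and 97.6, 93.5 and 95.3 CPM in the overexpression libraries. The groups overlapped in both, and the 95% interval of the log2 difference ran from -0.20 to 0.12 for *Col4a1* and from -0.18 to 0.07 for *Col4a2*. The ratio of *Col4a1* to *Col4a2* per kilobase stayed between 1.10 and 1.22 in all 6 libraries. The annotated genes overlap by 22 bases on opposite strands, and no source used here says if the counting used strand.

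The X-linked pair *Col4a5* and *Col4a6* is arranged the same way, with starts 1343 bases apart. *Col4a5* measured 23.8, 25.9 and 22.6 CPM in the controls and 23.6, 22.7 and 19.2 CPM in the overexpression libraries. The groups overlapped, and control replicates 1 and 2, the libraries with high *Xist*, were the highest of the 6. With *Xist* as a covariate the log2 difference of *Col4a5* was -0.05, against -0.14 in the main fit. That value rests almost only on control replicate 3, the 1 control with low *Xist*. The part of sex in these values was not tested. The ratio of *Col4a5* to *Col4a6* per kilobase was 3.02 to 3.39 over all libraries. *Col18a1*, whose C-terminal fragment is endostatin, was at 20.2 ± 1.24 CPM and 17.8 ± 2.64 CPM (SD, n = 3), and *Col15a1*, its relative, at 3.06 ± 0.14 CPM and 2.71 ± 0.73 CPM.

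*Col4a4*, a chain of the type IV collagen of the glomerulus, was the member with the largest positive difference. It measured 7.52, 6.57 and 6.79 CPM in the controls and 7.58, 8.02 and 10.5 CPM in the overexpression libraries. The groups did not overlap, with overexpression replicate 1 only 0.059 CPM above the highest control. In limma the log2 difference was 0.29 (SE 0.14), with an unadjusted p of 0.0793 and an adjusted p of 0.788, and without overexpression replicate 3 it was 0.16.

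Of the 10 laminin chains, 8 were lower and 2 higher by value, none at an unadjusted p under 0.05, with a median log2 difference of -0.11. *Lamc1*, the gamma chain shared by most laminins, measured 84.6, 83.2 and 84.6 CPM in the controls and 88.4, 86.3 and 88.5 CPM in the overexpression libraries. The groups did not overlap, with a difference of 0.06 on the log2 scale (SE 0.05, unadjusted p 0.236 from limma).

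*Lamb2*, a beta chain found in vascular basement membranes, measured 54.2, 57.9 and 55.0 CPM in the controls and 54.2, 51.4 and 50.8 CPM in the overexpression libraries. Control replicate 1 and overexpression replicate 1 were 0.014 CPM apart. The difference on the log2 scale was -0.09 (SE 0.06), with an unadjusted p of 0.141.

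*Lama2*, the alpha chain of muscle and brain parenchymal basement membranes, measured 6.77, 6.82 and 6.70 CPM in the controls and 4.34, 6.63 and 5.52 CPM in the overexpression libraries. The controls lay within 0.112 CPM of each other while the overexpression libraries spread over 2.30 CPM, and only the lower 2 stood clear of the controls. The log2 difference was -0.29 (SE 0.16), with an unadjusted p of 0.0992, and without overexpression replicate 1 it was -0.15.

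The vascular alpha chains *Lama4* and *Lama5* measured 22.6 ± 1.00 and 29.8 ± 3.33 CPM in the controls and 23.2 ± 0.38 and 27.5 ± 4.12 CPM in the overexpression libraries (SD, n = 3), and *Lamb1* measured 22.2 ± 2.00 and 20.95 ± 1.86 CPM. *Lama1*, *Lama3* and *Lamc3* overlapped between the groups, and their log2 differences ran from -0.14 to -0.03.

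The linkers of the sheet were close in level between the groups. *Nid1* measured 38.5 ± 1.85 CPM in the controls and 37.2 ± 1.87 CPM in the overexpression libraries, *Nid2* 12.2 ± 0.66 and 11.95 ± 0.31 CPM, and *Hspg2* 38.4 ± 5.61 and 37.8 ± 1.72 CPM (SD, n = 3). All 3 log2 differences were below 0, from -0.05 to -0.01, and all 3 groups overlapped.

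Vascular cells were followed beside these genes. The 13 endothelial markers summed to 251 to 252 CPM in the controls and 236 to 241 CPM in the overexpression libraries, 0.951 of the control mean, with no overlap, and 9 of the 13 were lower by value. The 10 mural cell markers summed to 262 to 306 CPM and 266 to 284 CPM, which overlapped. None of these markers was at 0 in a library. The laminin chains summed to 248 to 254 CPM in the controls and 234 to 248 CPM in the overexpression libraries, or 0.965 of the control mean, and the basement membrane collagens to 280 to 308 CPM and 279 to 284 CPM, or 0.962. The part of the vascular cells in these values was not tested.

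Among the glycoproteins, *Fn1*, which binds integrins and collagens, measured 70.6, 87.5 and 94.0 CPM in the controls and 77.6, 77.7 and 69.5 CPM in the overexpression libraries. The groups overlapped through the low control replicate 1, and the log2 difference was -0.16 with a 95% interval from -0.40 to 0.09. It was -0.28 without control replicate 1, -0.07 without control replicate 3 and -0.10 without overexpression replicate 3. Against control replicate 3 alone it was -0.33, and with *Xist* as a covariate, which rests on the same control, also -0.33. *Fbn1*, the main protein of microfibrils, was at 24.1 ± 3.42 and 24.6 ± 2.75 CPM (SD, n = 3). Its relative *Fbn2* measured 13.8, 9.25 and 11.6 CPM in the controls and 11.8, 14.5 and 14.3 CPM in the overexpression libraries, which overlapped.

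The fibril-associated collagens split evenly, with 3 higher and 3 lower by value and none at an unadjusted p under 0.05. *Col22a1*, a collagen of tissue junctions, measured 62.8, 75.4 and 68.0 CPM in the controls and 69.1, 69.5 and 57.9 CPM in the overexpression libraries. *Col9a3*, a chain of type IX collagen, was at 24.4 ± 2.60 and 24.3 ± 2.12 CPM (SD, n = 3). *Col12a1*, *Col16a1*, *Col20a1* and *Col9a2* also overlapped between the groups. Of the transmembrane collagens, *Col25a1*, a neuronal collagen, measured 35.4 ± 1.55 CPM in the controls and 35.3 ± 8.71 CPM in the overexpression libraries (SD, n = 3), with the highest and the lowest of the 6 libraries both in the overexpression group at 44.3 and 27.0 CPM, and *Col23a1* measured 1.49 ± 0.24 and 1.17 ± 0.20 CPM.

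In the beaded-filament and network collagens, 5 of 7 genes were lower and 2 higher by value. Their summed level was 41.9, 30.2 and 29.4 CPM in the controls and 28.9, 26.2 and 22.8 CPM in the overexpression libraries, without overlap. *Col26a1* was the only one at an unadjusted p under 0.05. It measured 10.1, 7.66 and 7.81 CPM in the controls and 7.46, 6.32 and 5.16 CPM in the overexpression libraries, a log2 difference of -0.41 (SE 0.17) with an unadjusted p of 0.0404 and an adjusted p of 0.788. The groups did not overlap, and control replicate 1 was the highest library.

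For *Col6a1* and *Col6a3*, chains of the type VI collagen of beaded filaments, a single control was high. *Col6a1* measured 21.3 CPM in control replicate 1 and 9.05 to 12.7 CPM in the other 5 libraries. *Col6a3* measured 4.78 CPM in control replicate 2 and 0.634 to 1.604 CPM in the others. The high library was thus not the same for these genes. *Col6a2*, *Col6a4*, *Col6a5* and *Col7a1* overlapped between the groups. *Col4a3bp*, which is no collagen, measured 50.03 ± 1.42 and 48.8 ± 3.10 CPM (SD, n = 3).

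The 3 lists around the matrix were counted in the same fit, and no gene of any of them was called. Of 23 matrix receptors, 15 were lower and 8 higher by value, and 4 stood at an unadjusted p under 0.05, all lower, which is 17.4% of the list against 5.52% of all genes. In 6 receptors the groups did not overlap, or 26.1%, against 11.2% of all genes: these 4 and *Itga3* were lower, and *Itga8* was higher. *Itga5*, the alpha subunit of the fibronectin receptor, measured 9.68, 11.4 and 10.4 CPM in the controls and 9.26, 8.11 and 7.33 CPM in the overexpression libraries (unadjusted p 0.0267). *Itga6*, a laminin receptor subunit, measured 33.8, 32.5 and 34.9 CPM and 27.6, 32.0 and 26.5 CPM (unadjusted p 0.0261). In both genes every overexpression library was below every control. *Itgav*, of the RGD-binding integrins, measured 15.3, 16.9 and 20.5 CPM and 15.2, 14.3 and 11.6 CPM (unadjusted p 0.0383), and *Sdc1*, a heparan sulfate proteoglycan of the cell surface, measured 35.2, 36.4 and 41.3 CPM and 32.4, 33.1 and 32.8 CPM (unadjusted p 0.0331). The adjusted p was 0.788 for each of the 4.

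Of 24 collagen processing genes, 17 were lower and 7 higher by value, 3 had no overlap between the groups, or 12.5%, against 11.2% of all genes, and *Pcolce*, the enhancer of the protease that trims fibrillar procollagen, was the only one at an unadjusted p under 0.05. It measured 2.51, 3.09 and 3.11 CPM in the controls and 2.27, 2.15 and 1.81 CPM in the overexpression libraries, a log2 difference of -0.40 (SE 0.16, unadjusted p 0.0382, adjusted p 0.788). Its groups did not overlap. Of 18 matrix proteases and inhibitors, 11 were lower and 7 higher by value and none stood at an unadjusted p under 0.05. The most abundant were *Adam10*, *Timp2* and *Mmp24*, at 136, 116 and 82.0 CPM on average over the 6 libraries.

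The spread between libraries sets what could be seen. The median coefficient of variation of the 48 matrix genes was 11.1% in the controls and 11.6% in the overexpression libraries, against 8.91% and 7.69% for the 12701 genes in the same range of mean CPM. On simulated data of this size, limma recovered 46% of genes with a 1.5-fold change and 74% of genes with a 2-fold change. The simulated counts varied independently from gene to gene, without the sex imbalance of these libraries. These shares may thus be higher than in the real table, where limma called 4 of 15102 genes and did not call *Sp9*. In 45 of the 48 matrix genes the estimated difference was under 1.5 times, the exceptions being *Col1a1*, *Col2a1* and *Col6a3*.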

How the data were processed

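Total RNA of 6 E16.5 LGE samples was made into stranded libraries after removal of ribosomal RNA. The authors deposited 1 CPM value per gene and library, on the build mm10 named in the submitters' processing notes. The sources used here do not give the aligner or counter. The deposited CPM are whole multiples of the value of 1 read within 0.05 read, for 100.0% of values, so reads were recovered from them. The authors' fold changes and p-values, also deposited, were not used. The filter required 0.5 CPM in 3 or more libraries, and 15102 genes passed it. Differences were fitted with limma 3.58.1 in R 4.3.3 (log2(CPM + 0.5), intensity trend, genotype only, two-sided, Benjamini-Hochberg over all genes kept, threshold 0.05). edgeR 4.0.16 and DESeq2 1.42.0 on recovered reads, other filters, pseudocounts and scalings, a replicate block, *Xist* as a covariate, control replicate 3 alone and each library left out were alternatives. Replicates differed by a chi-square of 5.74 to 17.5 per degree of freedom, so none was a repeat.

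The members and gene lists were chosen with earlier results of these data known. Named members are *Col1a1* and *Col4a1*, the 20 highest by mean CPM, and those with an unadjusted p under 0.05 or no overlap between groups. Other members are named or given by value only to account for their class. The values of *Col6a1*, *Col6a3*, *Lama3* and *Col6a2* were described after they were seen. The values of 1 member are not reported here, though it is counted. From lists around the matrix, members with an unadjusted p under 0.05, or else the 3 highest, are named, and *Itga3*, *Itga8*, *Igf2*, *Crabp2* and *Islr* were named after their values were seen. Poisson intervals cover counting error only. Limma and edgeR were tested on simulated data in which 200 genes were changed. Figures were drawn with matplotlib 3.10.9.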

Additional observations from a re-analysis of the deposited data

How the results depend on the processing

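No member was called under any of the 16 alternatives, and the lowest adjusted p was 0.152. The genes called over the whole table were 4, 34 with DESeq2 on recovered reads, and 3 to 15 with a library left out (15 without control replicate 1, 11 without control replicate 3). The members lower by value, counted under the alternatives after seeing the data, were 31 to 40 with a library left out. Members at an unadjusted p under 0.05 were 2 to 5 of 49 with a library left out, where the share of all genes was 2.49% to 13.4%. There were 5 without control replicate 1, at 13.4% of all genes, and 5 without control replicate 2, at 2.49%. There were 2 without overexpression replicate 2 or 3, at 3.46% and 2.89% of all genes. Members whose groups did not overlap were 10 to 15 with a library left out, with 15 without overexpression replicate 1, or 30.6%, against 24.8% of all genes, and 32 against control replicate 3 alone, or 65.3%, against 55.3% of all genes. Medians with a library left out were -0.11 to -0.05.

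Of 26 named members, 10 changed sign under some alternative, in 20 of 416 values. With *Xist* as a covariate the log2 differences were 0.007421 for *Col4a3bp*, 0.0284 for *Col25a1* and 0.0708 for *Col9a3*. Against control replicate 3 alone they were 0.000704, 0.0393 and 0.0746, and both settings rest on that control.
With a library left out the log2 differences ran from -0.0499 to 0.0827 for *Col9a3*, -0.0391 to 0.146 for *Fbn1*, -0.000354 to 0.0614 for *Lama4*, -0.0904 to 0.0324 for *Col4a1*, -0.108 to 0.0962 for *Hspg2*, -0.0718 to 0.0151 for *Col4a3bp*, -1.15 to 0.0403 for *Col1a1*, -0.133 to 0.01495 for *Col22a1*, -0.209 to 0.145 for *Col25a1* and -0.196 to 0.00953 for *Lama5*.
The replicate block left 0 members called and 3 genes called over the whole table. It left 5 members at an unadjusted p under 0.05, against 6.3% of all genes. Replicates with the same number correlated at -0.10, 0.20 and 0.08, and those with unlike numbers at -0.26 to 0.15. With 3 libraries per group this can neither show nor exclude a pairing, and the labels state none. The cause of these changes was not tested. Depth limits the precision of *Col1a1*, *Col3a1* and the genes near 1 CPM. The 23 reads of *Col1a1* were in overexpression replicate 1, which held the most reads in listed genes of the 6 libraries (25126847).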
